A study of Homo sapiens with 8 samples.

Results

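A set of 10 G1 regulators was followed by their ribosome footprints in rhabdoid tumor cells with and without SMARCB1. These genes, of 20719 gene IDs listed, were 5 inhibitors of cyclin-dependent kinases (CDKN1A, CDKN1B, CDKN1C, CDKN2A and CDKN2B), the 3 D cyclins (CCND1, CCND2 and CCND3) and the kinases CDK4 and CDK6. They were chosen by name, as G1 regulators classically tied to SMARCB1 re-expression in rhabdoid cells, and found by their Ensembl IDs. The cells were G401, an established line from a rhabdoid tumor of the kidney that lacks SMARCB1, a subunit of the SWI/SNF chromatin remodeler. One derivative carried a Tet-On cassette for SMARCB1 and the other a Tet-On cassette for GFP. Each line received 0.1 µg/ml doxycycline or DMSO for 12 h, which gave the groups SMARCB1 Dox, SMARCB1 DMSO, GFP Dox and GFP DMSO with 2 libraries each. All groups therefore share the G401 background, and SMARCB1 was expressed from a cassette and not from its own locus. How the 2 derivatives were selected is not given in the sources used here, so a difference between the lines cannot be told apart from a difference between their derivations. Plates were pooled within each condition, and nothing says how independent the paired libraries of a group were, so a p-value here measures the spread between these libraries.

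D cyclins bind CDK4 and CDK6, and the active complexes phosphorylate RB1, which releases E2F transcription factors and lets cells pass from G1 into S phase. INK4 proteins such as the products of CDKN2A and CDKN2B bind CDK4 and CDK6 themselves and keep D cyclins away. CIP/KIP proteins such as p21 (CDKN1A), p27 (CDKN1B) and p57 (CDKN1C) bind whole cyclin-CDK complexes, and in rhabdoid cells the G1 arrest that follows SMARCB1 return has been linked to CDKN2A, CDKN1A and CCND1.

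The libraries held between 5924443 and 14000039 counts on coding sequence. GFP Dox replicate 1 stood apart: 56.4% of its tallied alignments were not unique, against 25.6% to 39.7% in the other 7 libraries, and the members' fold changes and count ratios that use GFP Dox are also given without it. Where 1 library is left out, its group is a single library that is assumed to vary like the other groups. SMARCB1 had 0 counts in the 6 libraries without induced SMARCB1, and 2553 and 1750 counts in SMARCB1 Dox replicates 1 and 2, as their labels say. VIM, KRT8 and KRT18, which rhabdoid cells co-express, were present in all 8 libraries, the lowest level being 746 CPM (counts scaled to a common library size after TMM normalization) for KRT18.

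Not all of the 10 genes could be counted over their whole length. Footprints are short, so a read that fits a near-identical copy elsewhere, or that lies wholly in coding sequence of a second annotated gene, would not be assigned to a gene. CDKN2A (chr9:21967752-21995301, minus strand, GRCh38 with GENCODE release 44) and its neighbor CDKN2B (chr9:22002903-22009305, minus strand) have closely similar coding sequence, and a footprint that fits both cannot be placed in one gene or the other. Of all 30-base coding stretches, 6.84% in CDKN2A and 14.3% in CDKN2B occurred elsewhere in the genome, so most of each gene was countable. The reading frames of p16INK4a and p14ARF were counted under the single ID of CDKN2A and cannot be told apart here.

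CCND2 (chr12:4269771-4305353, plus strand) was the member with the least countable sequence. Of its 909 coding bases, 79.2% also belong to the coding sequence of another annotated gene on the same strand, ENSG00000285901, which was among the listed IDs and had 0 counts in every library. The 189 bases that belong to CCND2 alone form 2 runs, of 42 and 147 bases. The longer one, at chr12:4299860-4300006, is the coding part of the last exon and is shown in capitals throughout, because a footprint that lies wholly in the remaining shared bases fits both genes.
CCND2: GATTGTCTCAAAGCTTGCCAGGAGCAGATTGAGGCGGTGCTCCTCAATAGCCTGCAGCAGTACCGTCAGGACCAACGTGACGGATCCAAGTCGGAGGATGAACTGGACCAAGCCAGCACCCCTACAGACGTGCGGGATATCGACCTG
In CDKN1A, CDKN1B, CDKN1C, CCND1, CCND3, CDK4 and CDK6, no coding base belonged to a second gene, and at most 2.62% of 30-base stretches (CDK4) occurred elsewhere. For CDKN1A, CDKN1B and CDK6 that share was 0%.

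The 10 genes spanned from 3322 counts in a library (CDK4) to 0. Per kb of coding sequence, CDK4 was the most occupied, at 229 ± 26.7 CPM per kb (SD, n = 8 libraries), followed by CCND1 at 116 ± 16.1 and CCND3 at 46.9 ± 7.29. CDKN1B followed at 42.5 ± 12.5 CPM per kb, CDKN1A at 29.1 ± 9.3 and CDK6 at 26.3 ± 14.3. CDK4 was above CCND1 in 8 of 8 libraries, with ratios from 1.66 to 2.93, and CCND1 above CCND3 in 8 of 8, with ratios from 1.64 to 3.21. CCND3 was above CDKN1B in 5 libraries, CDKN1B above CDKN1A in 7 and CDKN1A above CDK6 in 5, so these neighbors in the order did not differ in every library. Far below came CDKN2A at 0.735 ± 0.393 CPM per kb, then CDKN2B and CCND2 with 3 counts each over all 8 libraries, and CDKN1C with 0. The plot of levels per kb shows this gap between 6 occupied genes and 4 that are at or near 0.

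**Figure D1:**
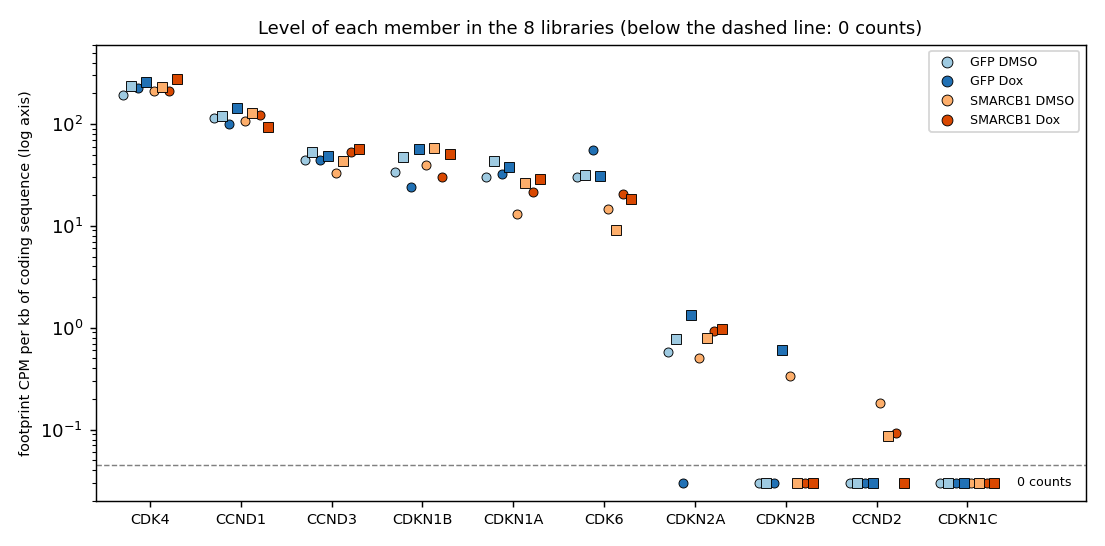
Footprint CPM per kb of coding sequence (log axis) for each of the 10 genes in each of the 8 libraries, with color for the group, circles for replicate 1 and squares for replicate 2, and libraries with 0 counts drawn below the dashed line. CDK4, CCND1, CCND3, CDKN1B, CDKN1A and CDK6 lie between 9.08 and 273 CPM per kb, and CDKN2A, CDKN2B, CCND2 and CDKN1C at 1.34 or less.

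The 6 occupied genes passed the filter on low counts and were tested among 11097 genes. Induction of SMARCB1 changed none of them past the threshold, an adjusted p below 0.05 and a fold above 2 in edgeR's quasi-likelihood test. In SMARCB1 Dox against SMARCB1 DMSO, 0 of 6 were called, where 0.018% of all tested genes were called. At an unadjusted p below 0.05 the count was 1 of 6 (CDK6), against 4.97% of all genes, and DESeq2 called 0 of 6, against 0.306%. The libraries of the groups did not overlap for 2 of 6 (CCND3 and CDK6), against 35.6% of all genes. In GFP Dox against GFP DMSO, which shows what doxycycline and GFP do without SMARCB1, 0 of 6 were called, against 0% of all genes. There 0 of 6 had an unadjusted p below 0.05, against 2.16%, DESeq2 called 0 of 6, against 0%, and the groups did not overlap for 0 of 6, against 26.3%. The difference between the Dox effects of the lines called 0 of 6, against 0% of all genes. An unadjusted p below 0.05 was reached by 0 of 6, against 3.99%, and DESeq2 called 0 of 6, against 0.00901%. SMARCB1 itself, with 0 counts outside SMARCB1 Dox, was missed by edgeR for this difference, with a standard error of 29814.47. DESeq2 called it, with an adjusted p of 0.00958.

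Between the lines, 1 of the 6 passed. In SMARCB1 DMSO against GFP DMSO, where neither cassette was induced, CDK6 was called, and it was lower in the SMARCB1 line. The background in this comparison was 4.97% of all genes called, 2.49% higher and 2.49% lower in the SMARCB1 line. An unadjusted p below 0.05 was reached by 2 of 6 (CDK6 and CDKN1A), against 13.9%, and DESeq2 called 1 of 6, again CDK6, against 5.73%. The groups did not overlap for 3 of 6 (CDKN1A, CCND3 and CDK6), against 44.8%. In SMARCB1 Dox against GFP Dox, 0 of 6 were called, against 6.08% of all genes, 3.1% higher and 2.98% lower in the SMARCB1 line. The unadjusted count was 1 of 6 (CDK6), against 18.7%, DESeq2 called 1 of 6 (CDK6), against 7.29%, and 3 of 6 did not overlap (CDKN1A, CCND3 and CDK6), against 46.1%. Over all 4 libraries of each line, CDKN1A and CDK6 did not overlap, 2 of 6, against 17.6% of all genes. With so few members, these counts are not set apart from the background. With footprints alone, fewer cells with a transcript, less RNA per cell and less translation per RNA cannot be told apart, which holds for every value below.

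**Figure D2:**
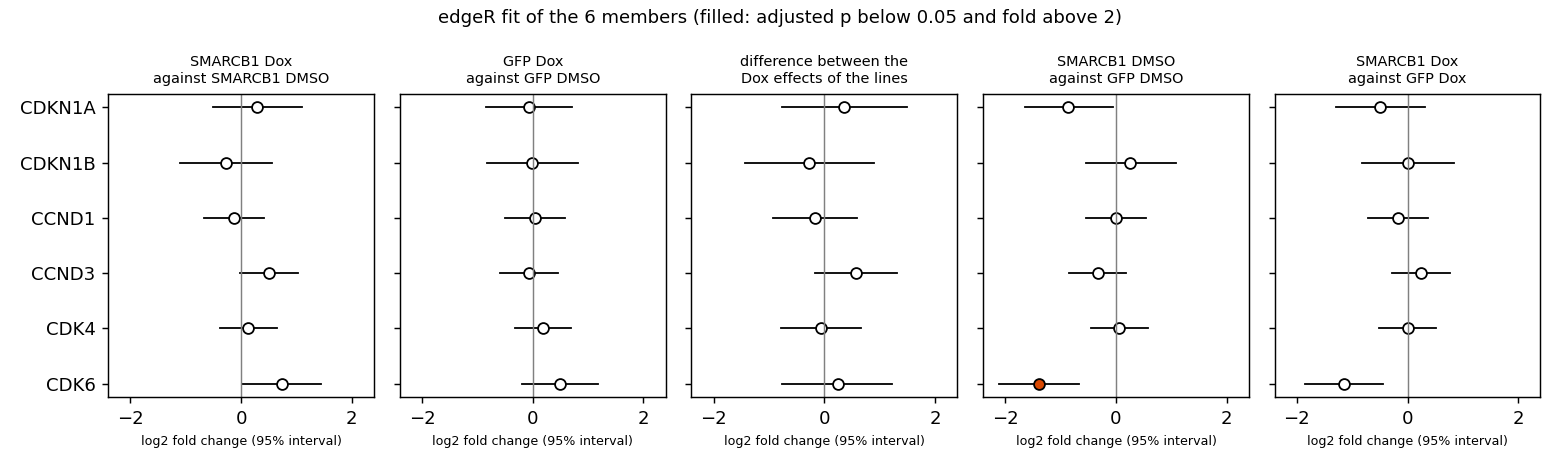
Log2 fold changes (points) with 95% intervals (lines) from the edgeR fit for the 6 tested genes in the 5 comparisons, with a filled point where the adjusted p was below 0.05 and the fold above 2. The single filled point is CDK6 in SMARCB1 DMSO against GFP DMSO, at -1.39, and all intervals in the 3 panels on doxycycline include 0 except that of CDK6 in SMARCB1 Dox against SMARCB1 DMSO, which starts at 0.01.

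Among the CIP/KIP inhibitors, CDKN1A (chr6:36676460-36687337, plus strand), which encodes p21, is a well-known target of p53. Its levels were 10.5 and 14.1 CPM in SMARCB1 Dox, 6.51 and 13 CPM in SMARCB1 DMSO, 15.7 and 18.6 CPM in GFP Dox and 14.8 and 21.3 CPM in GFP DMSO. All 4 libraries of the SMARCB1 line were below all 4 of the GFP line, by a narrow margin of 14.1 against 14.8 CPM at the closest pair, while Dox and DMSO libraries overlapped within each line. With SMARCB1 induction its log2 fold change was 0.29 (95% interval -0.51 to 1.1), a fold between 0.701 and 2.14. It was -0.07 (-0.85 to 0.71) in the GFP line, and the difference between these effects was 0.36 (-0.76 to 1.49). These values were 0.04 and 0.24 without GFP Dox replicate 1. Between the uninduced lines it was -0.86 ± 0.37 (SE), with an unadjusted p of 0.036 and an edgeR adjusted p of 0.295, and between the induced lines -0.49 ± 0.37 with an adjusted p of 0.531 (-0.61 and 0.542 without GFP Dox replicate 1). Leaving out 1 library moved the value between the uninduced lines from -0.47 (without SMARCB1 DMSO replicate 1) to -1.47 (without SMARCB1 DMSO replicate 2), with edgeR adjusted p from 0.124 to 0.941 over the 4 libraries. It was -1.1 without GFP DMSO replicate 1 and -0.58 without GFP DMSO replicate 2. The count in SMARCB1 DMSO replicate 1 was 39, the lowest of all, and without that library the value for SMARCB1 induction was -0.1.

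CDKN1B (chr12:12685498-12722369, plus strand) encodes p27, whose abundance in many cells is set by its degradation through the SKP2 ubiquitin ligase. It was read at 22.3 and 37.3 CPM in SMARCB1 Dox, 28.7 and 42.5 CPM in SMARCB1 DMSO, 17.9 and 41.4 CPM in GFP Dox and 24.8 and 34.8 CPM in GFP DMSO. All 4 groups overlapped, and the widest spread was between the libraries of GFP Dox. For CDKN1B the log2 fold change was -0.27 (-1.1 to 0.55) with SMARCB1 induction, -0.01 (-0.83 to 0.82) in the GFP line and 0.26 (-0.55 to 1.08) between the uninduced lines. Between the induced lines it was 0 (-0.83 to 0.83), and the difference between the Dox effects was -0.27 (-1.43 to 0.9). Without GFP Dox replicate 1 the value was 0.47 in the GFP line, -0.49 between the induced lines and -0.75 for the difference, still without a call.

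CDKN1A supplied 25.3% to 56.8% of the footprints per kb that fell on these 2 inhibitors together. Its share was 25.3% and 31.3% in SMARCB1 DMSO, 41.1% and 36.1% in SMARCB1 Dox, 47.1% and 47.7% in GFP DMSO and 56.8% and 40.2% in GFP Dox. Both SMARCB1 DMSO libraries had the lowest shares, and no test was made on this ratio, which was added after the values were seen. CDKN1C (chr11:2883213-2885775, minus strand), an imprinted gene for p57, had 0 counts in all 8 libraries. A floor of 3 counts over the 8 libraries corresponds to 0.0359 CPM per kb. Against this floor CDKN1A was 834-fold and CDKN1B 1200-fold higher per kb. The exact Poisson interval for 0 counts reaches up to 0.0442 CPM per kb, against which these folds would be smaller. These limits cover counting error only.

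**Figure D3:**
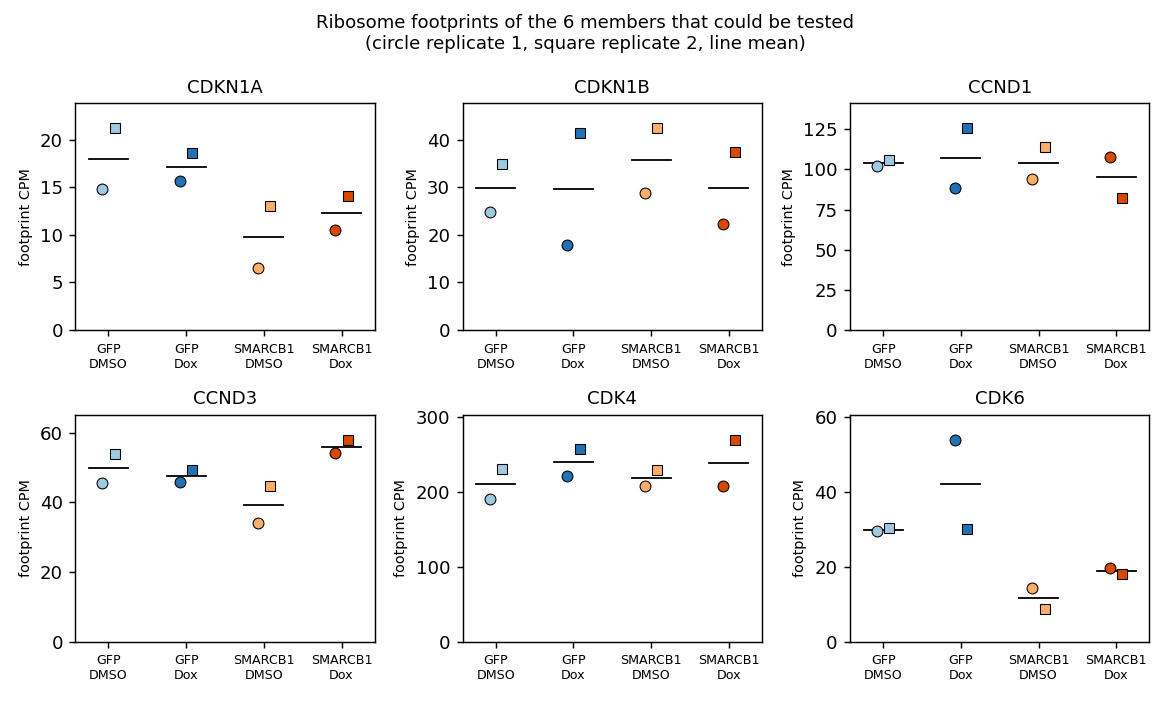
Footprint CPM in each library for CDKN1A, CDKN1B, CCND1, CCND3, CDK4 and CDK6, by group, with circles for replicate 1, squares for replicate 2 and a line at the mean of the 2 libraries. CDK6 lies at 8.88 to 19.8 CPM in SMARCB1 line libraries and 29.5 to 54.1 CPM in those of the GFP line, whereas CDK4 lies at 190 to 270 CPM with overlapping groups.

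The INK4 inhibitors CDKN2A and CDKN2B were close to the limit of detection. CDKN2C, an INK4 inhibitor outside the 10 genes, was not, at 30.1 ± 7.89 CPM per kb (SD, n = 8 libraries). CDKN2A gave 11 and 6 counts in SMARCB1 Dox, 3 and 10 in SMARCB1 DMSO, 0 and 9 in GFP Dox and 7 and 11 in GFP DMSO, 57 in all. That is 0.753 CPM per kb over the pooled libraries (exact Poisson interval 0.57 to 0.976). CDKN1A was 39.8 times (exact binomial interval 30.5 to 52.9) and CDKN1B 57.1 times (43.9 to 75.6) as occupied per kb. Length in these values is the union of coding bases over all transcripts, 990 for CDKN2A, whose longest coding sequence has 501. The ratios would be smaller on the latter length, and the intervals cover counting error only. The ratio of scaled, summed counts was 1.35 (exact binomial interval 0.617 to 3.02) for SMARCB1 Dox over SMARCB1 DMSO and 1.04 (0.41 to 2.43) for GFP Dox over GFP DMSO. It was 1.02 (0.459 to 2.2) for SMARCB1 DMSO over GFP DMSO and 1.32 (0.559 to 3.37) for SMARCB1 Dox over GFP Dox. Without GFP Dox replicate 1, which had 0 counts, the ratio was 1.96 (0.777 to 4.6) for GFP Dox over GFP DMSO and turned to 0.699 (0.295 to 1.78) for SMARCB1 Dox over GFP Dox. A difference in CDKN2A was thus not detectable at this depth, and with SMARCB1 induction the interval reaches up to a ratio of 3.02. CDKN2B, which encodes p15, gave 1 count in SMARCB1 DMSO replicate 1 and 2 in GFP Dox replicate 2. With 3 counts in all, its level of 0.0798 CPM per kb (exact Poisson interval 0.0164 to 0.233) is at the floor, and no fold is given.

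CCND1 (chr11:69641156-69654474, plus strand), the D cyclin that growth factor signals commonly induce, had the most footprints of the D cyclins. It was read at 108 and 82.3 CPM in SMARCB1 Dox, 94.2 and 114 CPM in SMARCB1 DMSO, 88.2 and 126 CPM in GFP Dox and 102 and 106 CPM in GFP DMSO. The groups overlapped throughout. With SMARCB1 induction the log2 fold change was -0.13 (-0.67 to 0.41, fold 0.628 to 1.33), and in the GFP line 0.04 (-0.5 to 0.58). Between the uninduced lines it was 0 (-0.54 to 0.54) and between the induced lines -0.17 (-0.71 to 0.37). Leaving out GFP Dox replicate 1 gave 0.27 in the GFP line and -0.4 between the induced lines. The interval thus includes a decrease of CCND1 footprints to 0.628 of the uninduced level after 12 h.

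CCND3 (chr6:41934934-42050357, minus strand) encodes the D cyclin best known from lymphoid cells and was the second D cyclin here. Its levels were 54 and 58 CPM in SMARCB1 Dox, 34 and 44.6 CPM in SMARCB1 DMSO, 45.7 and 49.3 CPM in GFP Dox and 45.5 and 53.9 CPM in GFP DMSO. The SMARCB1 Dox libraries were the highest of all 8, by 54 against 53.9 CPM at the closest pair, and the SMARCB1 DMSO libraries the lowest. The log2 fold change with SMARCB1 induction was 0.5 (-0.02 to 1.03), with an unadjusted p of 0.0584 and an edgeR adjusted p of 1. In the GFP line it was -0.07 (-0.59 to 0.46), and the difference between the effects of the lines was 0.57 (-0.17 to 1.31) with an adjusted p of 0.981. These became -0.01 and 0.52 without GFP Dox replicate 1.

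CCND2 had 1 count in SMARCB1 Dox replicate 1 and 1 in each SMARCB1 DMSO library, and 0 in the other 5 libraries. Over the 189 bases that it alone holds, this is 0.208 CPM per kb (exact Poisson interval 0.0428 to 0.607), which is at the floor of 3 counts. Against this floor level, CCND1 was 570 times (exact binomial interval 195 to 2760) and CCND3 229 times (78.3 to 1110) as occupied per kb of such bases. These ratios cover counting error only and rest on the 2 short runs of bases that CCND2 alone holds.

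CCND1 accounted for 62.2% to 76.1% of D cyclin footprints per kb, and CCND3 for 23.7% to 37.8%. CCND1 made up 70.7% ± 6.32 (SD, n = 4) of them in SMARCB1 line libraries, against 71.4% ± 2.61 for the GFP line. An exact permutation test over the libraries, two-sided, gave p = 0.886 for CCND1 (adjusted p = 0.914 over the 4 shares tested) and p = 0.914 for CCND3 (adjusted p = 0.914). Within treatments the line difference went in opposite directions: for CCND1 it was 4.55 points between the DMSO groups and -5.93 points between the Dox groups, and for CCND3 -4.64 and 5.91 points. Within the SMARCB1 line, the CCND3 share was 30.1% and 37.8% with Dox and 23.7% and 25.2% with DMSO, without overlap. In the GFP line it was 30.9% and 25.3% with Dox and 27.8% and 30.4% with DMSO, with overlap. The CCND2 share was at most 0.131% per kb of its whole coding sequence. It was at most 0.628% per kb of the bases that no other gene holds. On the first scale a difference between the lines of 0.0584 points had p = 0.143 (adjusted p = 0.286) in the exact permutation test. CCND2 had 3 counts in all, each in a library of the SMARCB1 line, and that p was fixed by which libraries held them.

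CDK4 (chr12:57747727-57756013, minus strand), a D cyclin kinase present in most dividing cells, had the narrowest range of the 6 tested members. It was read at 208 and 270 CPM in SMARCB1 Dox, 208 and 229 CPM in SMARCB1 DMSO, 221 and 258 CPM in GFP Dox and 190 and 231 CPM in GFP DMSO. Its whole range over the libraries was 0.51 on the log2 scale, against 0.61 for CCND1, 0.77 for CCND3, 1.24 for CDKN1B, 1.68 for CDKN1A and 2.58 for CDK6. The groups overlapped in all 4 comparisons. Its log2 fold change was 0.13 (-0.38 to 0.64) with SMARCB1 induction, 0.19 (-0.32 to 0.7) in the GFP line, 0.06 (-0.45 to 0.57) between the uninduced lines and 0 (-0.51 to 0.51) between the induced lines. The last value was -0.11 and that in the GFP line 0.29 without GFP Dox replicate 1.

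CDK6 (chr7:92604921-92836573, minus strand), the partner kinase that binds the same D cyclins, was the only one of the 6 called in any comparison. Its levels were 19.8 and 18.1 CPM in SMARCB1 Dox, 14.3 and 8.88 CPM in SMARCB1 DMSO, 54.1 and 30.3 CPM in GFP Dox and 29.5 and 30.5 CPM in GFP DMSO. Every library of the SMARCB1 line was below every library of the GFP line, with or without doxycycline. Between the uninduced lines, the log2 fold change was -1.39 ± 0.34 (SE), a level of 0.382 (95% interval 0.232 to 0.628) of that in the GFP line, with an edgeR adjusted p of 0.0231. By p-value it ranked 466 of 11097 genes in this comparison. The adjusted p lay between 0.000694 and 0.0393 under 8 other settings on all libraries compared. It rose to 0.246 without SMARCB1 DMSO replicate 2, where the log2 fold change was -1.06, to 0.112 without GFP DMSO replicate 1 and to 0.139 without GFP DMSO replicate 2.

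Between the induced lines every CDK6 level of the SMARCB1 line was again below those of the GFP line, but CDK6 was not called. The log2 fold change was -1.15 ± 0.33, a level of 0.45 (0.276 to 0.734), with an edgeR adjusted p of 0.0523 and 0.0208 in DESeq2, in a range from 0.00944 to 0.113 over 8 other settings. Without GFP Dox replicate 1, which had the highest level of 54.1 CPM and the large share of reads with several alignments, the value was -0.67 with an adjusted p of 0.354. Without GFP Dox replicate 2 it was -1.51 with an adjusted p of 0.00509, where GFP Dox replicate 1 alone stands for its group and the spread comes from the other groups. No 30-base stretch of CDK6 coding sequence occurred elsewhere in the genome. Non-unique alignments are tallied in a summary row apart from the gene counts, and why this library stood apart was not tested.

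With SMARCB1 induction, CDK6 footprints differed by a log2 fold change of 0.73 (0.01 to 1.45), with an unadjusted p of 0.048 and an edgeR adjusted p of 0.998. With doxycycline in the GFP line, the value was 0.49 (-0.2 to 1.18), and 0.02 without GFP Dox replicate 1. The difference between the effects of the lines was 0.24 (-0.76 to 1.23) with an adjusted p of 0.991, and 0.72 without GFP Dox replicate 1. The SMARCB1 DMSO libraries enter both this comparison and that of the uninduced lines, so the 2 values are not independent.

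CDK6 supplied a smaller share of the footprints on the 2 kinases in the SMARCB1 line. Per kb, its share was 8.79% and 6.35% in SMARCB1 Dox, 6.51% and 3.78% in SMARCB1 DMSO, 19.9% and 10.6% in GFP Dox and 13.6% and 11.8% in GFP DMSO. The mean was 6.36% ± 2.05 (SD, n = 4) for the SMARCB1 line and 14% ± 4.11 for the GFP line, a difference of -7.61 points. The difference was -7.54 points between the DMSO groups and -7.68 points between the Dox groups. The exact permutation test over libraries, two-sided, gave p = 0.0286, the smallest that 4 against 4 libraries allow, and an adjusted p of 0.114 over the 4 shares tested. Without GFP Dox replicate 1 the difference was -5.64 points with p = 0.0571 in the same exact test, and the SMARCB1 line was still lower in all libraries. CDK4 had the larger share of the pair in all 8 libraries.

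**Figure D4:**
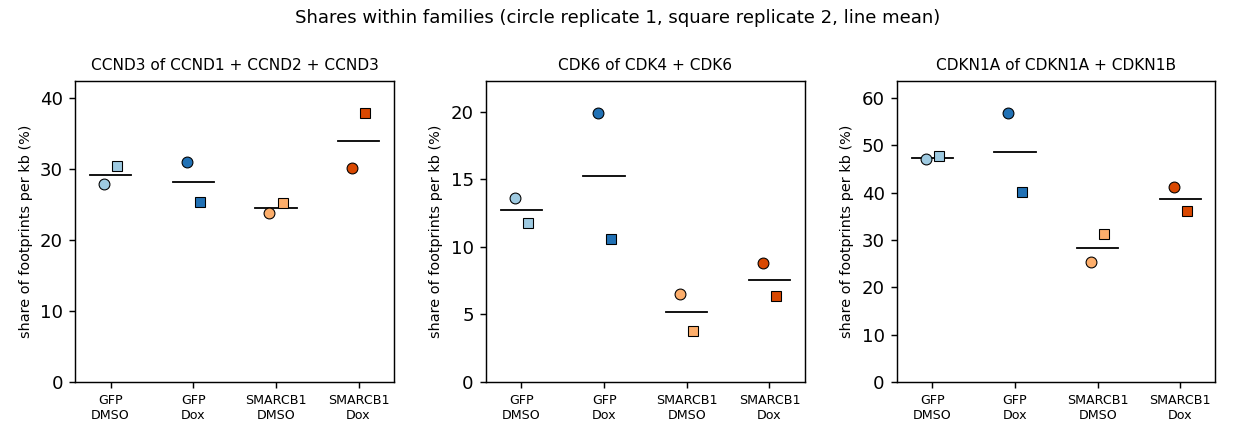
Share of footprints per kb (%) in each library, by group, for CCND3 among the D cyclins, CDK6 among CDK4 and CDK6, and CDKN1A among CDKN1A and CDKN1B, with circles for replicate 1, squares for replicate 2 and a line at the mean. The CDK6 share is 3.78% to 8.79% in SMARCB1 line libraries and 10.6% to 19.9% in those of the GFP line, and the CCND3 share reaches 37.8% in SMARCB1 Dox replicate 2.

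Around these genes, 28 others of the G1/S machinery were listed. Among the 28 were further INK4 genes, RB family members, E2F and DP factors, cyclins E and A2, CDK2, the CDK-activating kinase and the SKP2 ligase. Of the 28, 25 could be tested. With SMARCB1 induction 0 of 25 were called (0.018% of all genes), 3 had an unadjusted p below 0.05 (4.97% of all genes) and DESeq2 called 0, with a median log2 fold change of 0.21 against -0.02 over all genes. In the GFP line 0 were called (0% of all genes), 1 had an unadjusted p below 0.05 (2.16% of all genes) and DESeq2 called 0, with a median of -0.06 against 0.02. The difference between these effects also called 0 (0% of all genes), with 3 at an unadjusted p below 0.05 (3.99% of all genes) and 0 by DESeq2, and its median was 0.3 against -0.03.

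Between the uninduced lines, 1 of 25 was called, against 4.97% of all genes, the E2F-family repressor E2F5, at 30.4 and 31.4 CPM in SMARCB1 DMSO against 64.5 and 59.5 CPM in GFP DMSO. Its log2 fold change was -1 ± 0.25, with an edgeR adjusted p of 0.0289. Between the induced lines, 1 of 25 was called, against 6.08% of all genes, CCNE2, which encodes a cyclin that activates CDK2 after the D cyclins have acted. CCNE2 was at 17.1 and 18.1 CPM in SMARCB1 Dox, 7.84 and 9.27 CPM in SMARCB1 DMSO, 4.96 and 7.99 CPM in GFP Dox and 12.9 and 12.6 CPM in GFP DMSO. Both SMARCB1 Dox libraries were the highest of all, and the GFP Dox libraries overlapped those of SMARCB1 DMSO. Within the lines, its log2 fold change was 1.03 ± 0.34 with SMARCB1 induction and -0.97 ± 0.35 with doxycycline in the GFP line. Neither was called, and the GFP line value was -0.67 without GFP Dox replicate 1. The comparisons that follow thus hold a lower level in GFP Dox as well as a higher one in SMARCB1 Dox. The log2 fold change between the induced lines was 1.43 ± 0.36 with an edgeR adjusted p of 0.0246. For the difference between the effects of the lines it was 2 ± 0.49, with an unadjusted p of 0.00116 and an adjusted p of 0.977. They were 1.13 (edgeR adjusted p of 0.124) and 1.7 (edgeR adjusted p of 1) without GFP Dox replicate 1. DESeq2 called 1 between the uninduced lines and 2 between the induced lines (CCNE2 and CDK7), and the unadjusted counts were 4 and 5 of 25, against 13.9% and 18.7% of all genes. The number called fell to 0 between the uninduced lines without any 1 of the 4 libraries. Between the induced lines it was 0 without either SMARCB1 Dox library or GFP Dox replicate 1, and 3 without GFP Dox replicate 2.

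Genes that E2F factors switch on at the start of S phase, such as those for MCM helicase subunits, PCNA and ribonucleotide reductase, were listed as a readout downstream of the 10 genes. Of 24, 23 could be tested. In all 5 comparisons 0 of 23 were called by edgeR and 0 by DESeq2, and the count at an unadjusted p below 0.05 was 0 with SMARCB1 induction, 0 in the GFP line, 0 for the difference, 1 between the uninduced lines and 2 between the induced lines. Over all genes the shares at that p were 4.97%, 2.16%, 3.99%, 13.9% and 18.7% in the same order. With SMARCB1 induction their log2 fold changes ran from -0.45 to 1.43 with a median of -0.02, as over all genes. The highest, POLA2, has 83.2% of its coding bases in common with another annotated gene had 6 to 32 counts per library and was not called (edgeR adjusted p of 1).

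**Figure D5:**
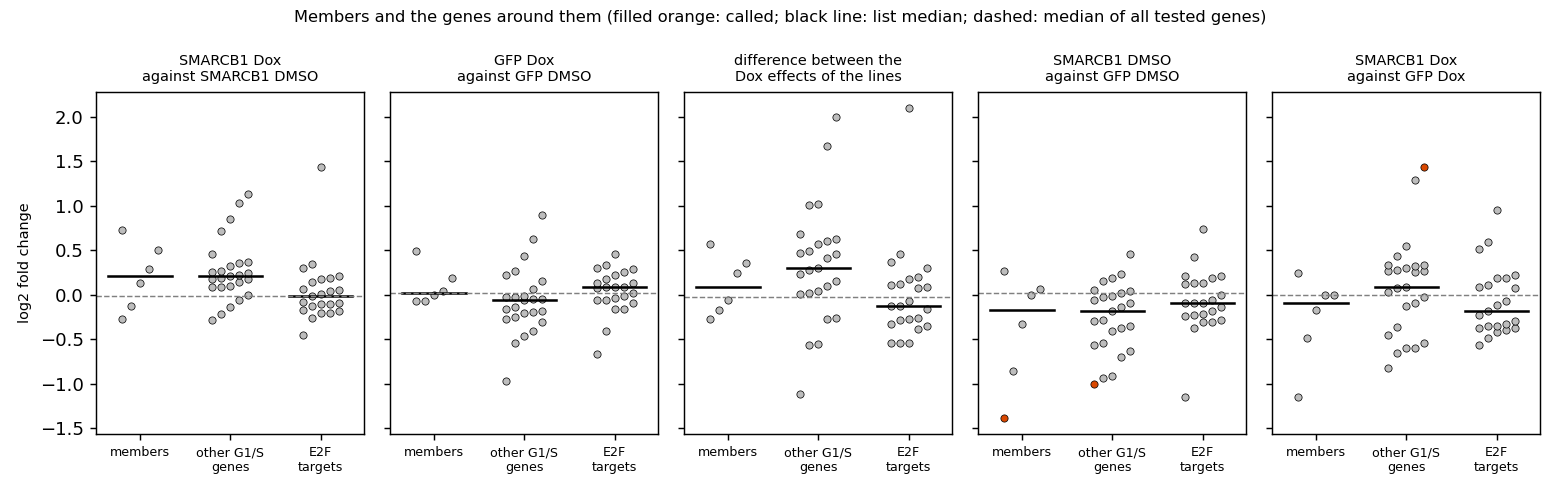
Log2 fold changes in the 5 comparisons for the 6 tested members, 25 other G1/S genes and 23 E2F targets (1 point per gene), with a black line at each list's median and a dashed line at the median of all tested genes. Called genes are orange, and these are CDK6 and E2F5 between the uninduced lines and CCNE2 between the induced lines.

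Other genes followed the most variable members closely. For CDK6 the genes with the highest Pearson correlation of log2 CPM over the 8 libraries were ATE1 (r = 0.984) and RRP1B (r = 0.98), and 114 genes were above 0.9. For CDKN1A they were NCAPD3 (r = 0.968) and PCDHGB7 (r = 0.967), the latter on 2 to 68 counts per library, and for CDKN1B MZF1 (r = 0.967) and PPIE (r = 0.966). Over the 7 libraries other than GFP Dox replicate 1, these values lay between 0.945 and 0.99. Libraries of a group share line and treatment, depth differs between the 8, and with so many genes searched such values are a description only.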

How the data were processed

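Ribosome-protected fragments of G401 cells were captured with the RiboLace kit and sequenced by the authors, who aligned reads with STAR to hg38 and counted them per gene with HTSeq (mode intersection-strict, type CDS, GENCODE release 42). Strand option, adapter and rRNA handling are not given in the sources used here. The deposited values are raw counts per gene, 1 file per library. The 5 summary rows of HTSeq were left out of library sizes. Of these, ambiguous reads made up 0.759% to 1.16% of all tallied entries.

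Here, counts were fitted with edgeR 4.0.16 in R 4.3.3 (filterByExpr, TMM scaling, 1 coefficient for each group, quasi-likelihood fit of the 8 libraries together), with Benjamini-Hochberg adjustment over 11097 genes, and tested on simulated data first. DESeq2 1.42.0, the authors' tool, was an alternative, besides RLE and library-size scaling, other filters, the compared groups only, a replicate block, robust fitting and leaving out each library. Shares were compared by exact permutation. Genes under the filter are given as counts with exact intervals. Log2 CPM used a prior count of 2. Symbols were matched for all but 293 of the IDs. Positions, lengths and sequence come from GENCODE release 44 on GRCh38 (hg38), the same genome build as the authors'.

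The 10 genes, both lists and the rule for named genes (these 10, SMARCB1, list genes that were called, and the 2 genes most like each of the 3 most variable members) were chosen with earlier results of these data known. POLA2, CDK7, CDKN2C, VIM, KRT8 and KRT18 are named besides, of which POLA2, CDK7 and CDKN2C were added after their values were seen. Total RNA libraries were not analysed here. Some sequences and 1 listed gene are not reported here.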

Additional observations from a re-analysis of the deposited data

How the results depend on the processing

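Of 378 repeats of the 30 log2 fold changes of the 6 tested members under other settings or without 1 library, 302 kept their direction and call, 33 reversed, 3 lost the call, 4 gained it, and 36 belong to 3 results at 0, which had no direction to keep. None of the reversed values was called. With library size as the only scaling, which moved the median of all genes to 0.16 for the difference between the Dox effects, CCND1 was -0.03 in the GFP line and 0.01 for that difference, and CDK4 was 0.13 for that difference and -0.01 between the uninduced lines. Leaving out each library in turn gave these log2 ranges where values fell on both sides of 0. With SMARCB1 induction CDKN1A lay between -0.1 and 0.91, CDKN1B between -0.68 and 0.06, CCND1 between -0.34 and 0.05 and CDK4 between -0.07 and 0.3. In the GFP line CDKN1A lay between -0.31 and 0.21, CDKN1B between -0.74 and 0.47, CCND1 between -0.25 and 0.27 and CCND3 between -0.19 and 0.06. For the difference between these effects CDKN1A lay between -0.02 and 0.98, CDKN1B between -0.75 and 0.46, CCND1 between -0.4 and 0.11, CDK4 between -0.25 and 0.12 and CDK6 between -0.11 and 0.72. Between the uninduced lines CDKN1B lay between -0.06 and 0.52, CCND1 between -0.15 and 0.13 and CDK4 between -0.08 and 0.2. Between the induced lines CDKN1B lay between -0.49 and 0.73, CCND1 between -0.4 and 0.11 and CDK4 between -0.2 and 0.17.

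Members called between the uninduced lines numbered 0 to 1 without 1 library, and between the induced lines 0 to 1. Between the induced lines DESeq2 and the fit with no filter each called 1 member, CDK6, and 2 other G1/S genes, and the fit of the compared groups only called 0 of the latter. Other G1/S genes called without 1 library numbered 0 to 1 in the GFP line, 0 to 2 for the difference, 0 to 0 between the uninduced lines and 0 to 3 between the induced lines. The cause was not tested. The difference in share between the lines, without 1 library, lay between -2.5 and 2.16 points for CCND1 and -2.24 and 2.47 for CCND3. It lay between 0.0341 and 0.0778 for CCND2, and -8.72 and -5.64 for CDK6 (p = 0.0571 or 0.0286 in the exact permutation test). Without SMARCB1 Dox replicate 2 the CCND2 difference had p = 0.0286 in the exact permutation test. CCND2 had 3 counts in all, each in a library of the SMARCB1 line, and its p was fixed by which libraries held them.

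A replicate block called 1 member and 2 other G1/S genes between the induced lines, where CDK6 was at -1.12 with an edgeR adjusted p of 0.0229, and changed no other count of these lists. Over all genes it called 13 with SMARCB1 induction, 0 in the GFP line, 0 for the difference, 603 between the uninduced lines and 734 between the induced lines. Replicate numbers share no stated day or batch, so the libraries were not treated as paired. The deviations of same-numbered libraries correlated weakly but positively in every pair of groups, at 0.0454 to 0.28. Replicate 2 was above replicate 1 in all 4 groups for 4 of 6 members (CDKN1A, CDKN1B, CCND3 and CDK4), against 14.3% of all genes. Whether replicates of the same number share an effect was not tested.

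Over all genes, no filter called 46 genes with SMARCB1 induction, 14 in the GFP line and 15 for the difference, DESeq2 called 34 with SMARCB1 induction and 1 for the difference, and the fit of the compared groups only called 5 with SMARCB1 induction. A minimum of 10 counts in every library called 1 with SMARCB1 induction, 288 between the uninduced lines and 377 between the induced lines. Depth limits CDKN2A, CDKN2B, CCND2 and CDKN1C, where intervals cover counting error only. The CDKN2A ratios, the CCNE2 values and the correlations without GFP Dox replicate 1, and shares over bases of no other gene, were added after seeing the data.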

Other observations

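Sequence shared with other genes also limited some of the other listed genes. SKP1, a subunit of the ligase that marks p27 for degradation, had 0 counts in all 8 libraries. Of its coding bases 79.9% belong to a second annotated gene, ENSG00000272772, which had 0 to 3 counts per library, and 39.1% of its 30-base stretches occurred elsewhere. CKS1B, a cofactor of the same ligase, had 0 to 5 counts per library with 89.7% of such stretches elsewhere. CDKN2D, an INK4 inhibitor without any such stretch, had 3 to 7 counts per library. The level of SKP1 and CKS1B therefore cannot be read from these counts.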
